A study of Mus musculus with 9 samples.

Results

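The insulin-like growth factor (IGF) system was followed through the differentiation of 3T3-L1 adipocytes at the level of its ligands, receptors and binding proteins. Its 10 genes were chosen by symbol, with earlier results of these data known. They were the ligands Igf1 and Igf2, the receptors Igf1r and Igf2r, and the binding proteins Igfbp2, Igfbp3, Igfbp4, Igfbp5, Igfbp6 and Igfbp7. All 10 were found once each among the 19094 genes listed. The 3T3-L1 line is a mouse fibroblast-like preadipocyte line that stores lipid after hormonal induction. RNA was sequenced from 9 samples, 3 each of preadipocytes at day 0, before any induction, of cells at day 4, after an induction medium with dexamethasone, IBMX and insulin followed by medium with insulin, and of cells at day 8, kept longer in the insulin medium. No group carried a genetic change or a further treatment. Day 4 against day 0 is named the early phase, day 8 against day 4 the late phase and day 8 against day 0 the whole process, so that each comparison shares its samples with the other 2. The sum of expected counts ranged from 18216114 to 20452144 over the samples (median 20182731).

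IGF1 and IGF2 are secreted peptides that resemble insulin and act through the tyrosine kinase receptor IGF1R, which signals by way of IRS proteins, PI3K and AKT and by way of the MAPK cascade. IGF2R, the cation-independent mannose 6-phosphate receptor, takes up IGF2 for degradation and sorts lysosomal enzymes. The binding proteins hold IGFs outside the cell and limit or prolong their action, and preadipocytes are known to need insulin or IGF1 for differentiation. IGFBP7 is a member with low affinity for IGFs.

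The labels name the cells adipocytes on all 3 days, and their protocol mentions DRG (taken here as the usual abbreviation for dorsal root ganglion), which is another tissue. Adipoq, an adipokine gene that marks adipocytes, was at 0.503 FPKM (fragments per kilobase of transcript, scaled to sequencing depth) on day 0, 467 on day 4 and 820 on day 8, as the mean of 3 samples. The 8 adipocyte markers summed to 151 FPKM on day 0, 6511 on day 4 and 8750 on day 8, with Lpl the most abundant on day 0 (117 FPKM, against 9.52 for Fabp4) and Fabp4 on days 4 and 8. The day 0 samples thus held little of the adipocyte marker Adipoq, against their label. The 8 neuron and Schwann cell markers summed to 4.38, 1.53 and 1.31 FPKM, and the most abundant of them on day 0 was Avil. Summed macrophage markers, led by Cd68, were between 1.58 and 1.84 FPKM as means per day, and summed endothelial markers, led by Vwf on day 0 and by Pecam1 on days 4 and 8, between 0.273 and 0.903 FPKM. The 5 markers of proliferating cells, led by Top2a on days 0 and 4 and by Ccnb1 on day 8, summed to 62.6 FPKM on day 0, 31.8 on day 4 and 36.0 on day 8, and the 6 preadipocyte or fibroblast markers, led by Dlk1, to 1359, 534 and 818 FPKM. The last sum followed Dlk1 (828, 181 and 415 FPKM), and its members did not all fall. Ly6a (167, 42.8 and 38.8) and Cd34 (0.51, 0.307 and 0.207) fell. Pdgfra (59.6, 102 and 65.7), Pdgfrb (76.9, 48.1 and 85.9) and Thy1 (227, 160 and 212) took other courses. These changes in cell state ran alongside the IGF genes, and their part in the results below was not tested. In such bulk samples a smaller number of cells of one kind and less RNA per cell cannot be told apart.

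Sequences upstream of 4 of the genes are shown because Igfbp4, Igfbp5 and Igf2 were the 3 genes that rose most over the 3 days and Igf1r the one that fell most. Each line gives the 250 bases before a RefSeq transcription start site on build GRCm38.p6, read 5′ to 3′ on the strand of the gene, with matches to the motifs searched in capitals. The windows are chr11:99040994-99041243 (plus strand) for Igfbp4, chr1:72874866-72875115 (minus strand) for Igfbp5, chr7:142657497-142657746 (minus strand) for the most downstream of the 4 Igf2 start sites and chr7:67952007-67952256 (plus strand) for Igf1r.
Igfbp4: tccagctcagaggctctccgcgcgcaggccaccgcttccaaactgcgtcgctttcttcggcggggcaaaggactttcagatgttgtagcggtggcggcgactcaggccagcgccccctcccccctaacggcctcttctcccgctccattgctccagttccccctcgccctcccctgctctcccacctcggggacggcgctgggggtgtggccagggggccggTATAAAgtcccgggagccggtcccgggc
Igfbp5: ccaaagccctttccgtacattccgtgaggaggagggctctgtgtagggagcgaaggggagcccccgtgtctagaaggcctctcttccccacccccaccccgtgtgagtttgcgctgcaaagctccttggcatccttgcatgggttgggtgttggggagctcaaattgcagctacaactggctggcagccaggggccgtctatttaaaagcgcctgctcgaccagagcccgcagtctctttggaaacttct
Igf2: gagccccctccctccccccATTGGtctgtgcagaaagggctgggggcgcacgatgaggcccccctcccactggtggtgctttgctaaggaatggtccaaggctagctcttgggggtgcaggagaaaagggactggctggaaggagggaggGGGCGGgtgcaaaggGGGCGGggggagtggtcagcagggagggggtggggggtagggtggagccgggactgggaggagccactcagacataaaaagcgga
Igf1r: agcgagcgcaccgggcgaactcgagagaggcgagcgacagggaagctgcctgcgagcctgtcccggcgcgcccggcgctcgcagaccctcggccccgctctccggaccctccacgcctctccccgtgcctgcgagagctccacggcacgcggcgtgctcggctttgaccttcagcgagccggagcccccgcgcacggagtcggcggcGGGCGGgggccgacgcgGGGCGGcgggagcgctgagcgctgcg

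The motifs were searched on both strands in windows of 250 bases before to 50 bases after the start site, for the 14 RefSeq promoters of the 10 genes and for all 32851 promoters. The TATA box TATAAA, which positions the transcription machinery, lay 28 bases before the start of Igfbp4 (first base at -28), and 13.6% of all promoters held it. The GC box GGGCGG, bound by SP1 family factors, lay at -100 and -85 in the Igf2 window and at -43 and -26 in the Igf1r window, and 35.7% of all promoters held it. The CCAAT box, which reads ATTGG on the other strand, lay at -231 in the Igf2 window, and 37.4% of all promoters held CCAAT. Neither of these nor any other motif searched was found in the Igfbp5 window. The C/EBP element TTGCNNAA was in none of the 14 IGF promoters and in 10.8% of all, the cAMP response element TGACGTCA in none and in 1.79%, and the PPAR direct repeat in none and in 0.0396%. AGAACA, the core of the glucocorticoid response element, was in 2 of the 14, of Igf2 and Igfbp2, and in 6233 of all 32851. The motifs do not overlap one another in the printed windows. The GC content of the whole windows was 71.3% for Igfbp4, 56.3% for Igfbp5, 63.3% for Igf2 and 76.0% for Igf1r, against a median of 52.7% over all promoters. A match describes letters, not binding, and a missing match says only that these letters are not in this window.

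The system as a whole moved from one dominated by Igfbp7 and Igf2r to one in which Igfbp4 and Igf2 were also abundant. A gene was called at a Benjamini-Hochberg adjusted p under 0.05 in edgeR's quasi-likelihood test and a fold change above 2. Of the 10 genes, 9 passed the filter on low counts, each with counts on every day, and Igfbp2 did not. In the early phase 3 of the 9 were called higher (Igf2, Igfbp4 and Igfbp5) and 1 lower (Igf1), where 9.77% of all 13154 genes tested were called higher and 7.98% lower. In the late phase 3 were called higher (Igf1, Igf2 and Igfbp4) and 0 lower, against 4.24% and 2.81% of all genes (7.05% in either direction). At an edgeR p under 0.05 with no fold required, adjusted or not, 3 were lower in the late phase, and DESeq2 with the fold threshold also called 0. Over the whole process 4 were called higher (Igf1, Igf2, Igfbp4 and Igfbp5) and 2 lower (Igf1r and Igfbp6), against 10.3% and 7.70% of all genes. The samples of the days compared did not overlap in FPKM for 8 of the 9 genes in each comparison, Igfbp3 being the exception, where 71.6%, 54.6% and 76.4% of all genes tested did not overlap in the early phase, the late phase and the whole process. The adjusted p alone was passed by 69.2%, 45.3% and 71.0% of all genes. Of these, genes that were higher made up 35.5%, 22.5% and 34.8% of all tested, and genes that were lower 33.7%, 22.7% and 36.2%. An unadjusted p under 0.05 was reached by 71.5%, 52.1% and 73.0% of all genes (36.7%, 25.8% and 35.8% higher, 34.9%, 26.3% and 37.2% lower). The median size of the log2 fold change, whatever its sign, was 0.65, 0.81 and 1.41 over the 9 genes and 0.37, 0.20 and 0.39 over all genes tested, in the same order. The signed medians were 0.63, -0.05 and 0.61 over the 9 genes and 0.02, -0.01 and -0.02 over all genes tested. The replicates are told apart by number only and nothing says that they were separate cultures, so the p-values measure the spread between these samples, which may be technical.

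**Figure D1:**
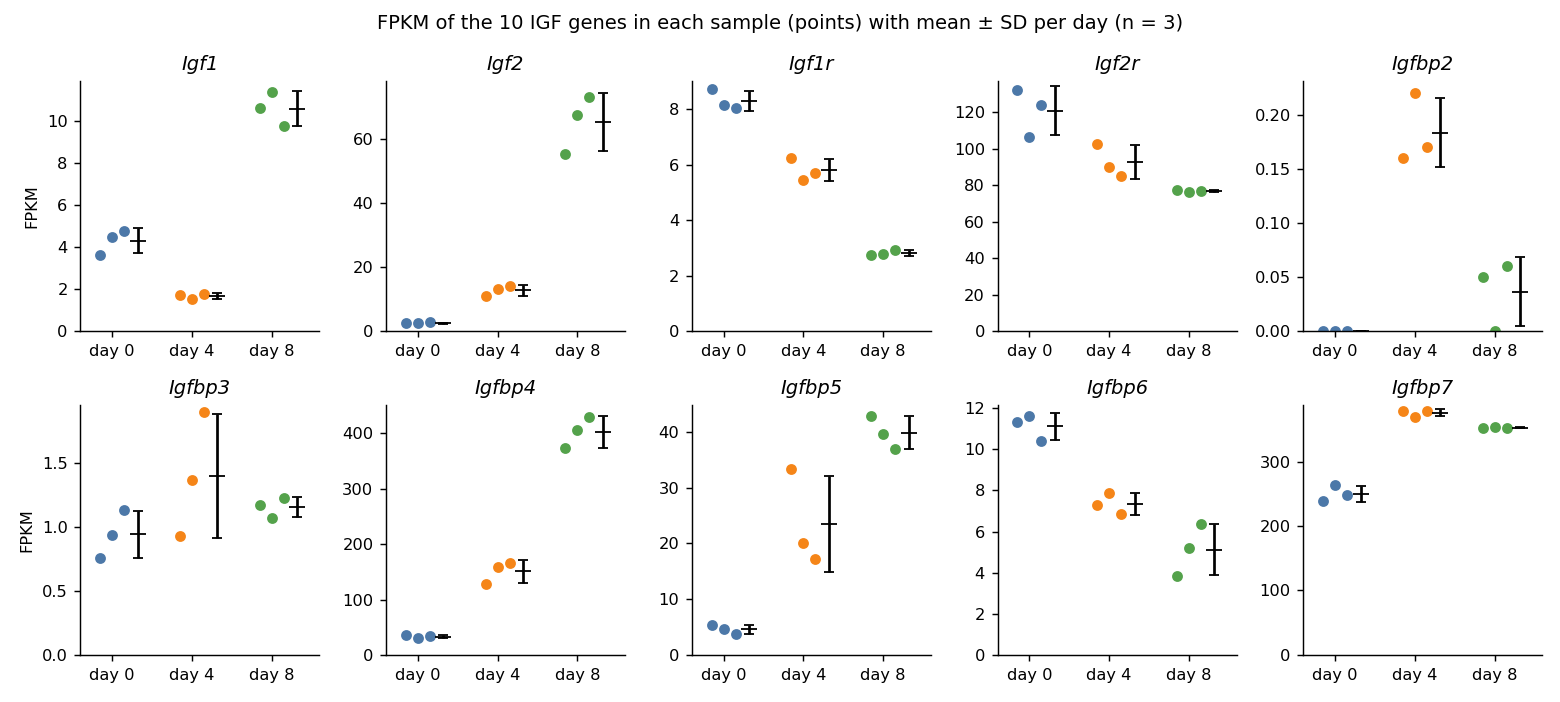
FPKM of the 10 IGF genes in each of the 9 samples (points), with the mean and SD of the 3 samples per day. Igf2, Igfbp4 and Igfbp5 were highest at day 8, Igf1 was lowest at day 4 and highest at day 8, and Igf1r was lowest at day 8.

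Igf2, an imprinted gene for a growth factor of fetal growth, had the largest whole-process fold change of the 9 genes tested. Its FPKM was 2.43, 2.41 and 2.72 at day 0, 10.9, 13.2 and 14.2 at day 4, and 55.2, 67.4 and 73.0 at day 8 (gene ID 16002). Every sample of a later day was above every sample of an earlier one. In edgeR the log2 fold change of Igf2 was 2.25 ± 0.12 (SE, adjusted p = 6.0e-11) in the early phase and 2.42 ± 0.09 (adjusted p = 5.5e-12) in the late phase, which made a 25.4-fold rise over the whole process (log2 4.67 ± 0.11, adjusted p = 4.9e-15). Among all detected genes Igf2 stood at the 43.0 percentile of FPKM at day 0 and at the 92.7 percentile at day 8. Of the 50-base stretches in Igf2 transcripts of GENCODE vM21, 61.2% also occur in transcripts of another gene, Gm49394, which the tables do not list, so the Igf2 level is uncertain where reads could have been split. The mean transcript length that RSEM gave Igf2 ranged from 3024 to 3706 bases between samples. FPKM divides by this length, whereas the edgeR test used counts without it.

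Igf1, which in the body is made mainly by the liver and locally by fat and muscle, went down and then up. Its FPKM was 3.64, 4.47 and 4.78 at day 0, 1.71, 1.52 and 1.77 at day 4, and 10.6, 11.4 and 9.74 at day 8 (gene ID 16000). All day 4 samples were below all day 0 samples, and all day 8 samples were above both. Igf1 fell 2.46-fold in the early phase (log2 -1.30 ± 0.10, SE, edgeR adjusted p = 7.8e-09) and rose 6.54-fold in the late phase (log2 2.71 ± 0.09, adjusted p = 2.5e-12). Over the whole process it rose 2.66-fold (log2 1.41 ± 0.08, adjusted p = 3.1e-10). With limma on log2(FPKM + 1), which shrinks low values, the early fall was by 0.98 on the log2 scale and no longer passed the fold threshold.

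The balance between the ligands shifted with these changes. The ratio of Igf2 to Igf1 FPKM was 0.592 ± 0.067 on day 0, 7.68 ± 1.17 on day 4 and 6.21 ± 1.17 on day 8 (SD, n = 3). Igf1 was thus the more abundant ligand transcript in every day 0 sample and Igf2 in every later sample. The day 0 ratios lay apart from those of day 4 and of day 8 (exact two-sided permutation test, p = 0.1 for each, the smallest that 3 against 3 samples allow). The day 4 and day 8 ratios overlapped (exact permutation test, p = 0.2). Over the 21 such tests of sums and ratios made here, Benjamini-Hochberg adjustment turned p-values of 0.1, 0.2 and 0.3 from these permutation tests into 0.117, 0.210 and 0.300. The summed ligand FPKM was 6.82 ± 0.72, 14.4 ± 1.66 and 75.8 ± 8.89 on the 3 days, an 11.1-fold ratio of day 8 to day 0.

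Igf1r, the signalling receptor for both ligands, went the other way. Its FPKM was 8.72, 8.15 and 8.04 at day 0, 6.23, 5.46 and 5.71 at day 4, and 2.73, 2.78 and 2.93 at day 8 (gene ID 16001). The samples of the 3 days did not overlap and were lowest at day 8. Igf1r fell 2.73-fold over the whole process (log2 -1.45 ± 0.06, SE, edgeR adjusted p = 3.9e-12). The log2 fold change was -0.45 ± 0.06 (adjusted p = 3.1e-06) in the early phase and -0.998 ± 0.06 (adjusted p = 2.1e-09) in the late phase, where it missed the fold threshold of 2 by a small margin and was called in 7 of the 22 alternative fits, in 1 of which no fold was required.

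Insr, the insulin receptor gene, which is the closest relative of Igf1r, was not called in any comparison. Its FPKM averaged 8.10 on day 0, 9.52 on day 4 and 8.47 on day 8, with log2 fold changes of 0.30, -0.12 and 0.18 in the early phase, the late phase and the whole process. The ratio of Igf1r to Insr FPKM was 1.02 ± 0.03 on day 0, 0.609 ± 0.042 on day 4 and 0.333 ± 0.017 on day 8 (SD, n = 3). The preadipocytes held about as much Igf1r as Insr transcript per length, and all day 8 samples held less Igf1r than Insr. The ratios of the 3 days did not overlap (exact permutation test, p = 0.1 for each pair of days).

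Igf2r was the most abundant receptor transcript of the system on every day. Its FPKM was 132, 106 and 124 at day 0, 103, 90.3 and 85.1 at day 4, and 77.5, 76.6 and 76.98 at day 8 (gene ID 16004). All samples of a later day were below all of an earlier day, although by less than the fold threshold. The log2 fold changes were -0.32 ± 0.08 (SE, edgeR adjusted p = 0.00172), -0.22 ± 0.08 (adjusted p = 0.0271) and -0.54 ± 0.08 (adjusted p = 1.1e-05) in the early phase, the late phase and the whole process. The ratio of Igf2r to Igf1r FPKM was 14.6 ± 1.32 on day 0, 16.0 ± 0.94 on day 4 and 27.4 ± 1.07 on day 8 (SD, n = 3). The first 2 overlapped (exact permutation test, p = 0.3), and the day 8 ratios were above both (p = 0.1 for each, the smallest possible).

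**Figure D2:**
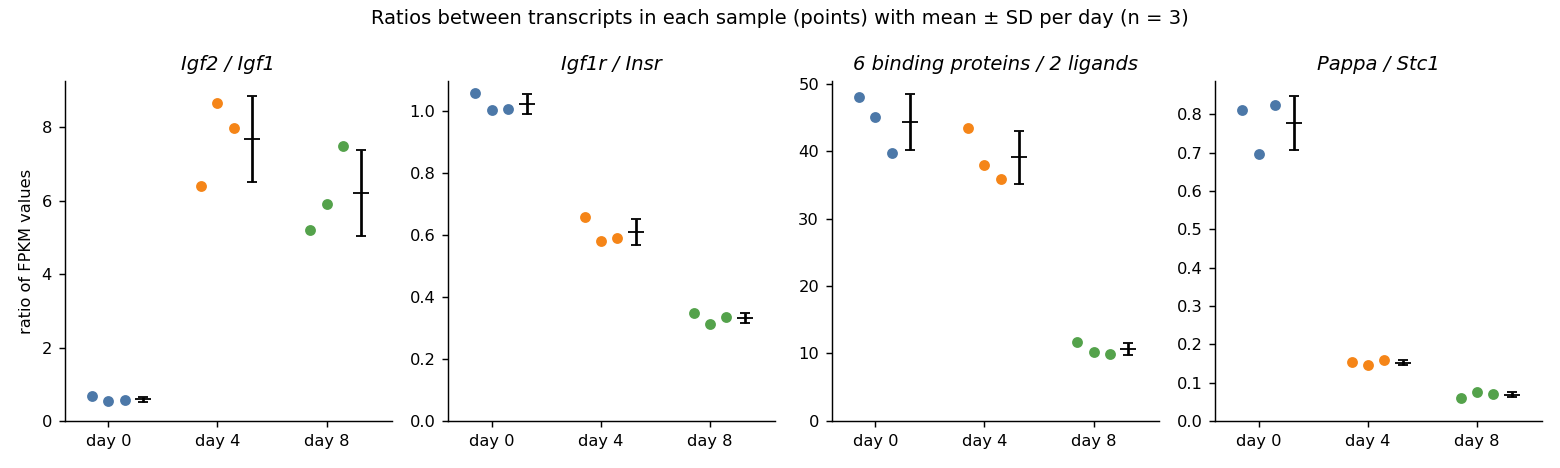
Ratios of FPKM values in each sample (points) with the mean and SD per day (n = 3), for Igf2 to Igf1, Igf1r to Insr, the 6 binding proteins to the 2 ligands, and Pappa to Stc1. The Igf1r to Insr ratio went from 1.02 at day 0 to 0.333 at day 8, and the ratio of all 6 binding proteins to the ligands was 44.3 at day 0 and 10.7 at day 8.

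Igfbp4, which encodes a binding protein that inhibits IGF action until it is cleaved, became the most abundant IGF gene. Its FPKM was 35.2, 30.0 and 34.5 at day 0, 128, 159 and 166 at day 4, and 373, 406 and 430.1 at day 8 (gene ID 16010). Every day 8 sample was above every day 4 sample, and these were above every day 0 sample. Igfbp4 rose 4.75-fold in the early phase (log2 2.25 ± 0.09, SE, edgeR adjusted p = 3.3e-12) and 2.76-fold in the late phase (log2 1.46 ± 0.09, adjusted p = 1.4e-09), and 13.1-fold over the whole process (log2 3.71 ± 0.10, adjusted p = 1.4e-14). At day 8 it stood at the 99.1 percentile of all detected genes by FPKM.

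Igfbp5, whose product binds IGFs and also the extracellular matrix, rose mainly in the early phase. Its FPKM was 5.32, 4.66 and 3.75 at day 0, 33.4, 20.03 and 17.2 at day 4, and 42.9, 39.6 and 37.0 at day 8 (gene ID 16011). The days did not overlap, but replicate 1 of day 4 was well above the other 2 samples of that day. Igfbp5 rose 5.38-fold in the early phase (log2 2.43 ± 0.19, SE, edgeR adjusted p = 1.0e-08) and 9.41-fold over the whole process (log2 3.23 ± 0.19, adjusted p = 2.8e-10). Its late log2 fold change of 0.81 ± 0.17 (adjusted p = 0.00094) was under the fold threshold and became 1.14, past it, without replicate 1 of day 4.

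Igfbp6, whose product prefers IGF2 over IGF1, declined by about the threshold. Its FPKM was 11.4, 11.6 and 10.4 at day 0, 7.30, 7.90 and 6.85 at day 4, and 3.85, 5.18 and 6.35 at day 8 (gene ID 16012). The samples of the 3 days did not overlap, and those of day 8 were the most spread. The whole process gave a 2.01-fold fall (log2 -1.003 ± 0.14, SE, edgeR adjusted p = 7.1e-06), which kept its direction but lost the call in 10 of the 22 alternative fits, with values from -1.18 to -0.83. The early and late log2 fold changes were -0.53 ± 0.13 (adjusted p = 0.00205) and -0.48 ± 0.14 (adjusted p = 0.0134), both under the fold threshold.

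Igfbp7 was the most abundant of the 10 genes at day 0 and day 4. Its FPKM was 239, 263 and 248 at day 0, 379, 369.5 and 379 at day 4, and 352, 353 and 352 at day 8 (gene ID 29817). All day 4 and day 8 samples were above all day 0 samples, and the day 8 samples were below those of day 4. In edgeR the log2 fold change was 0.65 ± 0.04 (SE, adjusted p = 1.8e-09) in the early phase, -0.05 ± 0.04 (adjusted p = 0.422) in the late phase and 0.61 ± 0.04 (adjusted p = 4.3e-09) over the whole process, none of them above 2-fold.

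Igfbp3 and Igfbp2 were hardly expressed. Igfbp3, the main carrier of IGFs in blood, had FPKM values of 0.760, 0.940 and 1.13 at day 0, 0.930, 1.37 and 1.90 at day 4, and 1.17, 1.07 and 1.23 at day 8 (gene ID 16009), from 38 to 92 counts per sample. The samples of all days overlapped, and the edgeR adjusted p of Igfbp3 was 0.0240 in the early phase (log2 0.63 ± 0.23, SE), 0.428 in the late phase (log2 -0.23 ± 0.23) and 0.143 over the whole process (log2 0.40 ± 0.24). Igfbp2 (gene ID 16008) had 0 counts in each day 0 sample, 3, 4 and 3 counts at day 4 and 1, 0 and 1 at day 8. The day 0 and day 4 counts did not overlap, and a fit without the low-count filter called Igfbp2 higher in the early phase (edgeR adjusted p = 0.00894) but not in the late phase or over the whole process (adjusted p = 0.159 and 0.241). No fold is given, because these counts lie at or near a floor of 3 counts per sample, which corresponds to 0.147 to 0.165 CPM (counts scaled to the library total) and covers counting error only.

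The summed level of the binding protein transcripts was higher on each later day, and its composition differed between the days. Their summed FPKM was 291, 310.3 and 298 at day 0, 549, 558 and 571 at day 4, and 773, 805 and 827 at day 8. The days did not overlap, and the day 8 mean was 2.67 times that of day 0 (exact two-sided permutation test, p = 0.1, the smallest possible). In CPM (here counts scaled to the library total times its TMM normalization factor, but not to length) the same ratio was 4.09. Igfbp7 made up 83.3% ± 1.43 of the sum on day 0, 67.2% ± 1.60 on day 4 and 44.0% ± 1.49 on day 8 (SD, n = 3). Igfbp4 made up 11.1% ± 1.28, 27.0% ± 3.16 and 50.2% ± 1.90. At day 8 Igfbp4 had thus taken the place of Igfbp7 as the leading member in each of the 3 samples. Igfbp5 held 1.53%, 4.22% and 4.98% and Igfbp6 3.71%, 1.31% and 0.636% of the summed FPKM as means of the 3 days. In CPM the parts were 71.0%, 47.2% and 26.5% for Igfbp7, 17.7%, 35.5% and 56.7% for Igfbp4, and 6.97%, 15.8% and 16.1% for Igfbp5.

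**Figure D3:**
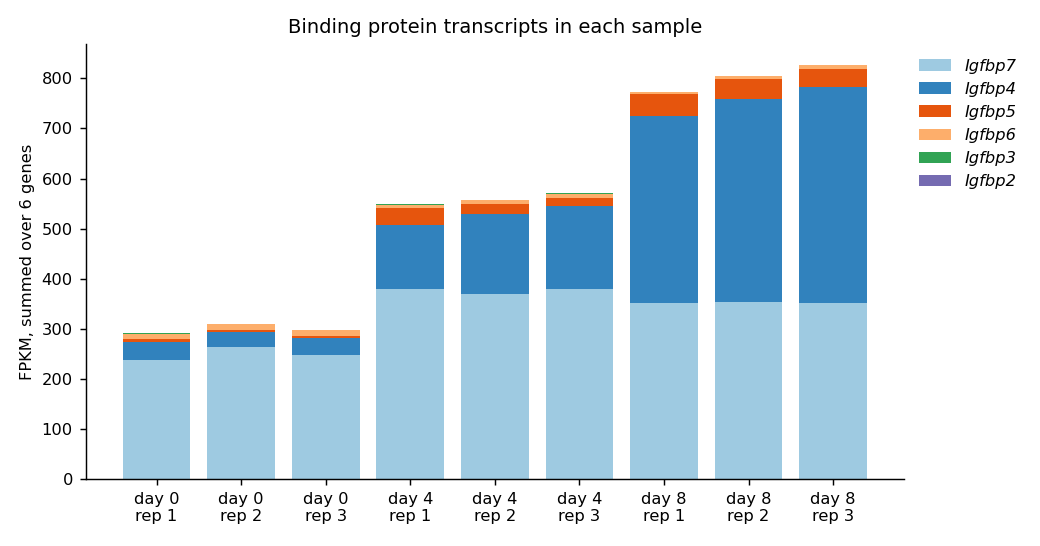
Summed FPKM of the 6 IGF binding protein genes in each of the 9 samples, divided by gene. The sum was 291 to 310.3 at day 0 and 773 to 827 at day 8, with Igfbp7 as the largest part at day 0 and Igfbp4 at day 8.

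The excess of binding protein over ligand transcripts was smallest at day 8 on the 3 scales computed, while its course before day 8 depended on the scale. CPM and the omission of Igfbp7 were each used alone and were not combined. The low value at day 8 is therefore not shown for CPM without Igfbp7. The ratio of summed binding protein to summed ligand FPKM was 44.3 ± 4.17 on day 0, 39.1 ± 3.90 on day 4 and 10.7 ± 0.96 on day 8 (SD, n = 3). The day 0 and day 4 ratios overlapped (exact permutation test, p = 0.2), and all day 8 ratios were below both (p = 0.1 for each). Without Igfbp7, the member of low IGF affinity that held most of the day 0 sum, the ratio was 7.39 ± 1.11, 12.8 ± 0.69 and 5.96 ± 0.38 on the 3 days (SD, n = 3). In CPM, with all 6 binding proteins, it was 9.82 ± 1.15, 16.5 ± 1.09 and 5.09 ± 0.34. In both of these, which were added after seeing the data, the samples of the 3 days did not overlap and day 4 was highest. Ordered by FPKM, the genes at day 8 were Igfbp4, Igfbp7, Igf2r, Igf2, Igfbp5, Igf1, Igfbp6, Igf1r, Igfbp3 and Igfbp2, and no neighbours in that order overlapped. At day 0 the order was Igfbp7, Igf2r, Igfbp4, Igfbp6, Igf1r, Igfbp5, Igf1, Igf2, Igfbp3 and Igfbp2, in which Igfbp5 and Igf1 overlapped. At day 4 Igf1 and Igfbp3 overlapped near the bottom of the order.

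**Figure D4:**
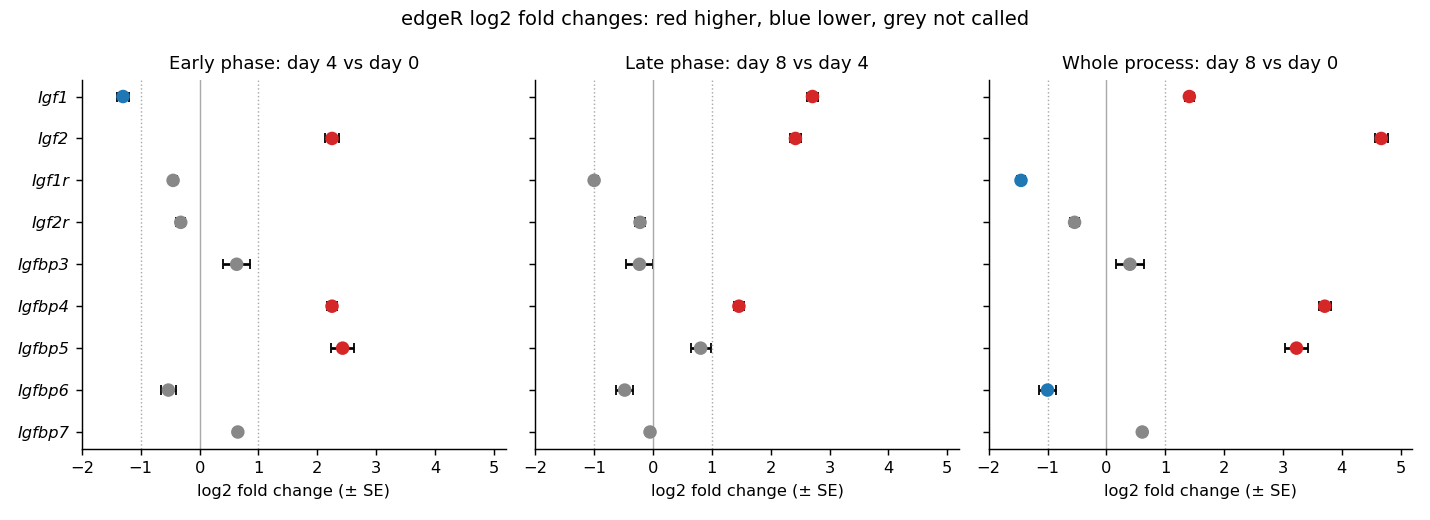
Log2 fold changes of the 9 IGF genes tested, with standard errors from edgeR, in the early phase, the late phase and the whole process, and lines at a fold change of 2. Igf1 was at -1.30 in the early phase and 2.71 in the late phase, whereas Igf2 and Igfbp4 were above 1 in each comparison.

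Genes that act on the binding proteins were examined next. Of 8 proteases and inhibitors, 7 were tested, and over the whole process 3 were called higher and 0 lower, against 10.3% and 7.70% of all genes. At an unadjusted edgeR p under 0.05 with no fold required, 3 were higher and 3 lower, against 35.8% and 37.2% of all genes. Pappa encodes the metalloprotease PAPP-A, which cleaves IGFBP4 and so frees IGFs, and its FPKM was 5.2, 4.36 and 5.05 at day 0, 1.90, 1.57 and 1.71 at day 4, and 2.18, 2.59 and 2.40 at day 8. Pappa fell 2.69-fold in the early phase (log2 -1.43 ± 0.09, SE, edgeR adjusted p = 4.5e-10), and its whole-process log2 fold change of -0.92 was under the threshold. Stc1, whose product stanniocalcin-1 inhibits PAPP-A, had FPKM values of 6.40, 6.25 and 6.13 at day 0, 12.3, 10.8 and 10.8 at day 4, and 35.8, 34.9 and 33.9 at day 8. All samples of a later day were above those of an earlier day, and Stc1 rose 6.02-fold over the whole process (log2 2.59 ± 0.06, SE, edgeR adjusted p = 3.1e-15). The ratio of Pappa to Stc1 FPKM was 0.778 ± 0.070, 0.152 ± 0.007 and 0.0686 ± 0.0069 on the 3 days (SD, n = 3), without overlap between days (exact permutation test, p = 0.1 for each pair).

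Pappa2, a related protease that cleaves IGFBP5 and IGFBP3, averaged 0.390, 0.417 and 0.880 FPKM and rose in the late phase (log2 1.13 ± 0.15, edgeR adjusted p = 1.6e-05). Adam12, a metalloprotease reported to cleave IGFBP3 and IGFBP5, averaged 2.52, 19.9 and 16.4 FPKM and rose 8.26-fold in the early phase. Igfals encodes the acid labile subunit, which holds IGFs and IGFBP3 or IGFBP5 in a ternary complex in blood, and its FPKM was 0.260, 0.550 and 0.160 at day 0, 4.11, 4.44 and 3.01 at day 4, and 5.29, 5.49 and 5.58 at day 8. Igfals rose 12.8-fold in the early phase (log2 3.67 ± 0.25, SE, edgeR adjusted p = 1.9e-09) and 18.6-fold over the whole process. It is the 1 gene called among the 2 that were tested in the list of carriers and other receptors, where 9.77% of all genes were called higher early and 10.3% over the whole process. At day 0 Igfals had 11, 21 and 7 counts, so it passed the low-count filter only through the later days. No conclusion about the list is drawn from these calls. Igfbp1, Igfbpl1 and Insrr of that list did not pass the filter.

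Secreted proteins that share the IGFBP domain but are not classical binding proteins were examined as a further list. Of 8 tested, 6 were called lower and 1 higher in the early phase, against 7.98% and 9.77% of all genes. In the late phase 1 was called higher, against 4.24% of all genes, and over the whole process 3 were called lower and 1 higher, against 7.70% and 10.3%. Cyr61, a matricellular CCN gene, had 229, 269 and 278 FPKM at day 0, 90.8, 66.1 and 96.8 at day 4, and 48.4, 47.0 and 51.0 at day 8. It fell 2.92-fold in the early phase and 4.90-fold over the whole process (log2 -2.29 ± 0.11, SE, edgeR adjusted p = 1.5e-11). The CCN gene Ctgf averaged 2.74, 0.200 and 0.0733 FPKM and fell 13.0-fold in the early phase, and Nov averaged 4.15, 0.720 and 1.22 FPKM. Ctgf had 14, 4 and 11 counts at day 4 and 5, 2 and 4 at day 8, so it passed the low-count filter only through day 0. Wisp2 fell in the early phase (log2 -1.76) and rose in the late phase (log2 1.15), from 23.4 to 6.57 and then 14.1 FPKM as means. Crim1 and Wisp1 were also called lower in the early phase, by 2.37-fold and 2.01-fold. Kazald1 was the member called higher, with 6.69, 20.7 and 20.5 FPKM.

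Around Igf2 itself, H19, the imprinted noncoding RNA next to Igf2 on the chromosome, had FPKM values of 1.09, 0.910 and 1.24 at day 0, 0.640, 1.24 and 1.11 at day 4, and 4.38, 3.42 and 4.15 at day 8. The day 0 and day 4 samples overlapped and all day 8 samples were higher. H19 rose in the late phase (log2 2.03 ± 0.19, SE, edgeR adjusted p = 2.4e-07), while its early log2 fold change was -0.05 ± 0.22 (adjusted p = 0.849), where that of Igf2 was 2.25. Igf2os, annotated antisense to Igf2, had 5, 2 and 2 counts at day 0, 21, 15 and 18 at day 4, and 31, 45 and 33 at day 8. The strand used in counting is not stated, so its reads and those of Igf2 cannot be told apart. The Igf2 mRNA binding protein genes Igf2bp1, Igf2bp2 and Igf2bp3 were not called in any comparison, and their whole-process log2 fold changes were -0.58, -0.24 and -0.73.

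In the growth hormone axis, through which growth hormone raises IGF1 in many tissues, all 7 genes were tested, and 1 was called higher in each comparison and 1 lower over the whole process. Of all genes 9.77%, 4.24% and 10.3% were called higher in the early phase, the late phase and the whole process, and 7.70% lower over the whole process. The receptor gene Ghr averaged 117, 130.5 and 142 FPKM and was not called, nor were Stat5a and Stat5b, with whole-process log2 fold changes of 0.74 and 0.59. Socs2, a feedback inhibitor of growth hormone signalling, averaged 33.0, 25.2 and 15.03 FPKM and was called lower over the whole process (log2 -1.02 ± 0.05, edgeR adjusted p = 4.9e-11). Ghrh, which encodes growth hormone releasing hormone, was the member called higher in each comparison, with 0.190, 0.110 and 0.00 FPKM at day 0, 1.67, 6.39 and 9.54 at day 4, and 157, 212 and 266 at day 8. At day 0 Ghrh had 2, 1 and 0 counts, below the floor of 3 counts, so it passed the low-count filter only through the later days. Only its late call compares 2 days above that floor, and no conclusion about the list is drawn from its other 2 calls.

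Of 36 signalling genes below IGF1R, 35 were tested, of which 2 were called higher and 2 lower in the early phase, 0 higher and 1 lower in the late phase, and 1 higher and 0 lower over the whole process, where 17.8% and 7.05% of all genes were called in either direction in the early and late phases, and 10.3% were called higher and 7.70% lower over the whole process. At an unadjusted edgeR p under 0.05 with no fold required, 12 were higher and 8 lower in the late phase (25.8% and 26.3% of all genes), and 15 were higher and 13 lower over the whole process (35.8% and 37.2% of all genes). Their median log2 fold change was 0.04, 0.00 and 0.01. Pik3r1, the p85α regulatory subunit of PI3K, averaged 18.3, 57.0 and 25.5 FPKM, rose in the early phase (log2 1.70 ± 0.06, edgeR adjusted p = 1.6e-13) and fell in the late phase (log2 -1.11 ± 0.05, adjusted p = 1.5e-10). Foxo1, a transcription factor that AKT holds out of the nucleus, averaged 7.35, 21.6 and 15.9 FPKM and was called higher both in the early phase and in the whole process. Grb14, an adaptor that inhibits the insulin receptor, was called lower in the early phase (log2 -1.43). Irs1, Irs2 and Akt2 were not called, with whole-process log2 fold changes of 0.01, 0.74 and 0.72. None of the 10 genes that sort lysosomal enzymes together with IGF2R was called in any comparison, where 17.8%, 7.05% and 18.0% of all genes were in the early phase, the late phase and the whole process. For these 10, edgeR's unadjusted p was under 0.05 for 6 of them in the early phase, 7 in the late phase and 5 over the whole process, against 71.5%, 52.1% and 73.0% of all genes.

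**Figure D5:**
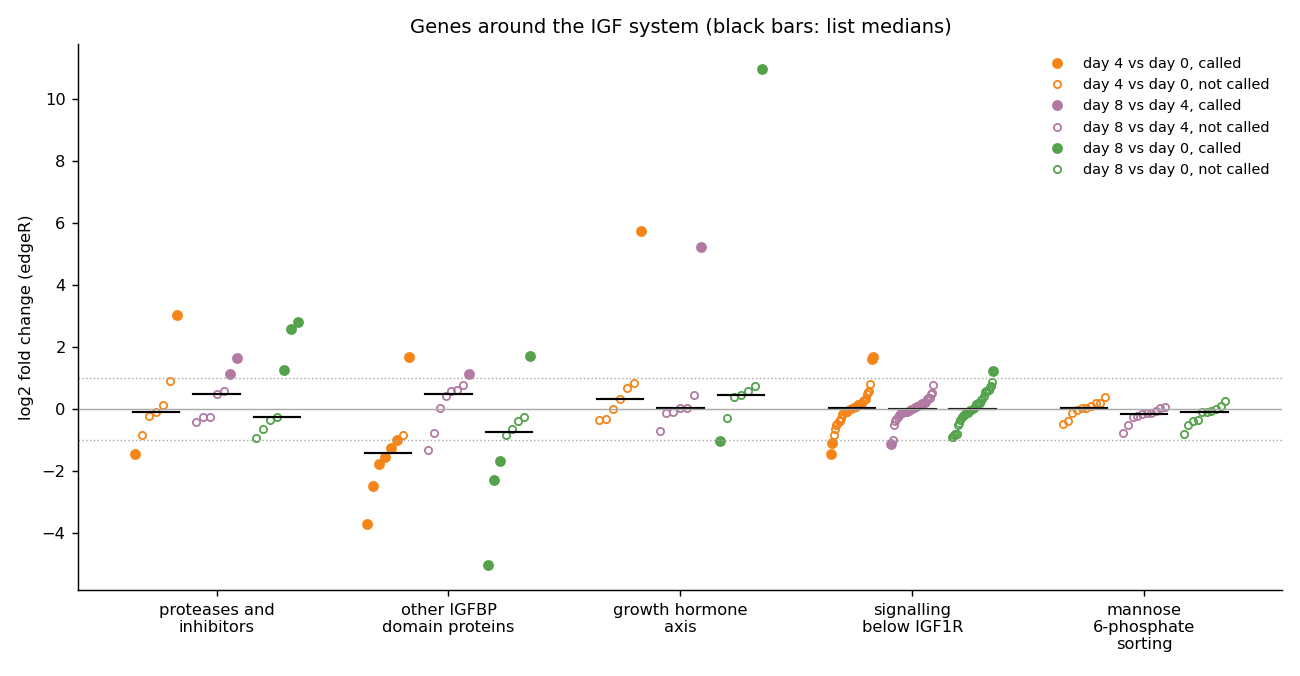
Log2 fold changes of the genes in 5 lists around the IGF system (points, filled where called) with list medians (bars), for the early phase, the late phase and the whole process. Genes with an IGFBP domain lie mostly below 0 in the early phase, and the signalling genes have medians of 0.04, 0.00 and 0.01.

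A pair of receptor families with related functions served for comparison. Of the insulin receptor, the IRS genes and Slc2a4 (GLUT4), 4 were tested and only Slc2a4 was called, higher in each comparison, where 9.77%, 4.24% and 10.3% of all genes were, with a whole-process log2 fold change of 8.41. At day 0 Slc2a4 had 7, 14 and 6 counts, so it passed the low-count filter only through the later days. No conclusion about the list is drawn from its early and whole-process calls. Of the PDGF and FGF receptors 7 were tested, and 3 were called higher and 0 lower over the whole process, against 10.3% and 7.70% of all genes. None of the 7 was lower at an unadjusted edgeR p under 0.05, where 37.2% of all genes were. In the early phase 3 were called higher (Fgfr2, log2 1.33, Fgfr3, 2.07, and Fgfrl1, 1.47) and 0 lower, against 9.77% and 7.98% of all genes. In the late phase 0 were called higher and 0 lower, against 4.24% and 2.81%. By phase some of them did fall, by less than the fold threshold. With the edgeR adjusted p alone, 1 was lower in the early phase (Pdgfrb, log2 -0.61) and 3 in the late phase (Fgfr2, -0.76, Pdgfra, -0.59, and Fgfr1, -0.29), where 33.7% and 22.7% of all genes were. By the same adjusted p, 6 were higher in the early phase and 2 in the late phase, where 35.5% and 22.5% of all genes were. The difference between Igf1r and these receptors was not tested.

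The 3 genes with the most similar profile were listed for each IGF gene called in any comparison, by the smallest root mean square distance between centred log2 CPM over the 9 samples, among 11466 genes. Nearest to Igfbp4 were Aoc3, Mmd and Abcd2, at distances of 0.0896, 0.138 and 0.150 log2 units, and nearest to Igf1r were Foxp1, Orai2 and Mfsd1, at 0.0563, 0.0579 and 0.0967. Igf2 was nearest to Abi3, Lctl and Plcb2 at 0.232, 0.266 and 0.279. Igfbp5 was nearest to the imprinted gene Mest at 0.223, then to Pi15 and Dpt at 0.229 and 0.260. The profile of Igf1, low at day 4, was nearest to those of Foxo6, Fmod and Igsf10 at 0.222, 0.250 and 0.348. Fmod, which encodes the collagen-binding proteoglycan fibromodulin, averaged 9.63, 2.85 and 22.6 FPKM. Igfbp6 was nearest to Ggt7, Pisd-ps1 and Trp63 at 0.131, 0.136 and 0.159. These distances describe 3 days of 3 samples each, over which many genes rise or fall together.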

How the data were processed

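RNA-seq libraries were available for 9 samples of differentiating 3T3-L1 cells, 3 numbered replicates each from day 0, day 4 and day 8. According to the study's methods the cells of a stage were pooled, RNA mixtures were sequenced, reads of low quality were removed, clean reads were mapped with HISAT/Bowtie2 and expression was estimated with RSEM. CASAVA 1.4 and Bowtie2 are named in the submitters' processing notes, the labels name a library kit of another platform than the methods do, and the genome build is not given in the sources used here, so no gene coordinates of the tables are printed. The authors deposited, per gene and sample, RSEM's expected counts, which are not normalized, and the FPKM values, which the authors scaled to effective gene length and to depth. The effective or transcript length of each gene was also deposited by the authors and was used to describe Igf2. TPM was computed by scaling the FPKM values of each sample to a common total.

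Expected counts were rounded to whole numbers, filtered with filterByExpr by day (13154 of 19094 genes kept) and normalized with TMM. A single model with all samples was fitted in edgeR 4.0.16 (R 4.3.3) with a coefficient per day, tested by glmQLFit and glmQLFTest over all genes with Benjamini-Hochberg adjustment, and genes were called where the adjusted p was under 0.05 and the fold change exceeded 2. Means and SDs per day are of the deposited FPKM. Sums and ratios were tested by exact permutation in scipy 1.17.1. On simulated data for day 4 against day 0 with 13154 genes, the test recovered 200 of 200 genes changed 4-fold and called 2 unchanged genes. The changed genes were drawn from those with a mean CPM above 2. Recovery at folds near 2 or at lower counts was therefore not examined. Promoters and motifs came from a RefSeq table on GRCm38.p6, in which all 10 genes were matched, and shared 50-base stretches from GENCODE vM21 transcripts.

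The text names the 10 IGF genes in every comparison, counts of further lists with the members called or used to describe a list, and the 3 nearest profiles of each IGF gene called, among genes whose average log2 CPM was 1 or more. The values of 1 further list member are not reported here. The 10 genes and the lists were chosen with earlier results of these data known. Replicates differed by more than counting noise and none were merged. Their numbers were not treated as pairs. Alternatives were RLE factors, library size alone, no filter, a minimum of 10 counts in every sample, DESeq2 1.42.0, edgeR's exact test and glmTreat, limma 3.58.1 on log2(FPKM + 1) and log2(FPKM + 0.1), an adjusted p alone, an adjusted p under 0.001, separate models, a replicate block, TPM or CPM for the sums, CPM or a sum without Igfbp7 for the binding protein to ligand ratio (both chosen after seeing the data), and leaving out each sample in turn. The self-test recovered 200 changed genes with DESeq2 and with edgeR's exact test, and 198 with limma.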

Additional observations from a re-analysis of the deposited data

How the results depend on the processing

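Of 594 log2 fold changes of the 9 IGF genes under 22 alternative fits, 564 kept their direction and their side of the threshold, 18 gained a call, 11 lost it and 1 turned its sign. Of the 18, 11 had an unchanged value and were called only because no fold was required, and 7 moved past a fold of 2 (6 for Igf1r and 1 for Igfbp5, all in the late phase). The 1 that turned its sign was Igfbp3 in the late phase, at -0.23 with all samples and between -0.46 (without replicate 1 of day 4) and 0.044 (without replicate 3 of day 4) on leaving out 1 sample. Igfbp6 decided the number of IGF genes lower over the whole process, which was 2 and became 1 with RLE factors, with no filter, with at least 10 counts in every sample, with DESeq2, with glmTreat and with separate models. Leaving out 1 sample gave 1 to 2, with 1 without replicate 1 or 2 of day 0, replicate 2 of day 4 or replicate 1 of day 8. Igf1r decided the number lower in the late phase, which was 0 and became 1 with library size alone, with limma on log2(FPKM + 0.1) and with separate models. It was 0 to 1 on leaving out 1 sample, with 1 without replicate 2 or 3 of day 4 or replicate 3 of day 8. Without the filter 4 IGF genes were higher in the early phase in place of 3, with Igfbp2 as the added gene (edgeR adjusted p = 0.00894). The number higher in the late phase was 3 to 4 on leaving out 1 sample, with Igfbp5 as the added gene. Igf1 was at -0.98 in the early phase with limma on log2(FPKM + 1), which left 0 IGF genes lower there, on a scale that shrinks low values. With the adjusted p alone, 5 IGF genes were higher and 4 lower in the early phase and 3 lower in the late phase.

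Over all genes the numbers called were 1285 higher and 1050 lower in the early phase, 558 and 370 in the late phase, and 1356 and 1013 over the whole process. At least 10 counts in every sample gave 831 higher in the early phase and 310 higher and 173 lower in the late phase, with fewer genes tested. With glmTreat 664 were lower in the early phase, 248 higher and 129 lower in the late phase, and 571 lower over the whole process. With limma on log2(FPKM + 1) the numbers were 708 and 565, 224 and 136, and 753 and 528. With the adjusted p alone they were 4676 and 4430, 2964 and 2989, and 4583 and 4756, and an adjusted p under 0.001 gave 221 lower in the late phase.

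The ratio of summed binding protein FPKM of day 4 to day 0 was 1.86 and became 1.79 with TPM and 2.37 with CPM, and with CPM those of day 8 to day 0 and of day 8 to day 4 became 4.09 and 1.72. The CPM values used library totals with TMM factors. With CPM, which weights long transcripts more, Igfbp7 held 71.0%, 47.2% and 26.5% of the sum on the 3 days, Igfbp4 17.7%, 35.5% and 56.7%, and Igfbp5 6.97%, 15.8% and 16.1%. Igfbp3 held 0.598%, 0.393% and 0.194%, Igfbp6 1.08% at day 4 and 0.449% at day 8, and Igfbp2 0.0189% at day 4. The binding protein to ligand ratio of 44.3, 39.1 and 10.7 became 9.82, 16.5 and 5.09 with CPM, and 7.39, 12.8 and 5.96 without Igfbp7, both chosen after seeing the data.

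Samples with the same replicate number did not deviate together (correlations of -0.0348 to 0.075 over 9 pairs, 0 of them above 0.1), so the numbers were not taken as pairs. With a replicate block in the model, 3 IGF genes were higher and 1 lower in the early phase, 3 and 0 in the late phase, and 4 and 2 over the whole process, as without the block, and all 27 log2 fold changes kept their call. Over all genes the block gave 1287 higher and 1053 lower in the early phase, 556 and 367 in the late phase, and 1360 and 1010 over the whole process. Depth limits the precision for Igfbp2, at 0 to 4 counts, and of Igfbp3, at 38 to 92 counts per sample.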
